A study of Mus musculus with 17 samples.

Results

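CD8 T cells that had met antigen in 3 different ways were set against naive CD8 T cells on Illumina mouse bead arrays, and the question was which genes moved in one direction in all 3 antigen-experienced states rather than in a single state. The 12 antigen-experienced arrays were those titled LSEC-primed (4 arrays), Teff (5 arrays, called effector here) or memory (3 arrays). The remaining 5 arrays, titled naive, were the reference, so all 17 arrays of the series took part. All cells were OT-I cells, which carry a transgenic T cell receptor for an ovalbumin peptide, from mice on a C57Bl/6 background aged 2 to 6 months. Naive cells came from spleen. LSEC-primed cells came from coculture with LSEC (liver sinusoidal endothelial cells), and 3 of these samples carry the cell type label CD8+ Tpm while sample 4 is labelled CD8+ LSEC-primed T cells. Effector cells came from coculture with splenic DC (dendritic cells), except that sample 8 gives spleen as its source. Memory cells came from spleen 3 months after an infection labelled Listeria monocytogenes OVA. The receptor was the same in every group, so only 1 antigen specificity was sampled, and the labels give neither the length of the cocultures nor which mice each sample came from. Nothing in them says that each sample of a group had its own animal or culture, so a p-value here measures only how these samples varied, and some of that may be technical.

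Antigen recognition takes a naive CD8 T cell out of rest. Genes that keep it quiescent and recirculating through lymph nodes, such as the chemokine receptor gene Ccr7 and the transcription factor gene Lef1, are turned down, while adhesion, cytokine and killing genes are turned on. The adhesion receptor CD44 is the usual surface mark of an antigen-experienced cell, and the transcription factor T-bet, encoded by Tbx21, promotes cytotoxic differentiation. Immediate-early genes, which include AP-1 subunits and phosphatases that switch off MAP kinases, respond within minutes to stimulation or handling in many cell types, and SOCS proteins restrain cytokine signalling.

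The CD8 T cell markers Cd8b1, Cd3e, Cd3d and Cd3g lay above an estimated background level on all 17 arrays, while the probe for Cd8a did so on 1 LSEC-primed and 1 memory array and on no naive or effector array, and Trac was not analysed here. Mean intensity was 96.7 on memory sample 5 and 140 on memory sample 3, and 227 to 471 on the other arrays. On memory sample 5, 16.5% of probes lay above background, on memory sample 3 27.6%, and on the others 29.1% to 35.3%. No values were imputed and no array was dropped. Erythroid transcripts differed between the groups. Of 6 measured markers 5, 5 and 0 were lower than naive in LSEC-primed, effector and memory cells, against 5.75%, 12.3% and 6.93% of all genes. Their summed linear level was 6391 to 35580 on naive arrays, 6275 to 15540 on memory arrays, 351 to 400 on LSEC-primed arrays and 364 to 392 on effector arrays. In RNA from bulk cells, fewer cells of a type and less RNA per cell cannot be told apart. No erythroid marker was called in all 3 groups. With median and with 90th percentile scaling, however, 3 of the 6 were called lower in all 3, as were 175 and 182 of all named genes. With median scaling without memory sample 5 it was 0 of the 6, and 158 of all named genes.

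Of 16462 named genes, 251 (1.52%) were higher than naive in every one of the 3 groups and 400 (2.43%) were lower in every one, together 3.95%. A gene counted only if limma's moderated test gave an adjusted p under 0.05 after Benjamini-Hochberg adjustment over all features in each of the 3 comparisons, with one sign. Taken singly, 1652 genes (10.0%) were higher and 947 (5.75%) lower in LSEC-primed than in naive cells, a total of 2599 (15.8%). In effector cells 2331 (14.2%) were higher and 2027 (12.3%) lower, a total of 4358 (26.5%), and in memory cells 1092 (6.63%) were higher and 1141 (6.93%) lower, a total of 2233 (13.6%). The 3 comparisons share the 5 naive arrays. The average of the 3 group means, each state counting equally, differed from naive for 1925 higher (11.7%) and 1486 lower genes (9.03%), which include all 251 and all 400 shared genes. A change of at least 2-fold in all 3 groups was seen for 66 of the higher and 108 of the lower genes. All 12 antigen-experienced arrays lay above all 5 naive arrays for 195 of the 251 and below them for 288 of the 400, and over all genes tested such separation was seen for 1.55% upward and 1.97% downward. These separations use the same arrays as the calls and are given as a description. Among the 251 the median log2 difference from naive was 1.00 in LSEC-primed, 1.08 in effector and 0.91 in memory cells, and among the 400 it was -0.92, -1.04 and -0.98, against 0.01, -0.0039 and 0.01 over all genes. The genes were selected on these same differences, so the medians too are only a description.

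The count of shared higher genes depended on how the arrays were put on one scale. With arrays aligned on their medians in place of quantile normalisation, 6 genes were higher and 175 lower in all 3 groups. The array median, which this alignment makes equal, lay below the estimated background on all 17 arrays. What this did to the counts was not tested. The memory comparison moved most, from 1092 higher and 1141 lower genes to 78 and 2256, while LSEC-primed cells gave 622 and 239 and effector cells 1913 and 593. Aligning the arrays on a common 90th percentile, chosen after seeing the data, gave 178 shared higher and 182 shared lower genes and put 10862 genes higher in memory cells. It shifted the median of all genes by 0.97 in memory, -0.32 in effector and -0.11 in LSEC-primed cells. With median alignment and memory sample 5 left out of the fit, also chosen after seeing the data, 18 genes were higher and 158 lower in all groups. Without memory sample 5 and effector sample 8 under quantile normalisation, 227 were higher and 355 lower, of which 197 and 325 were among the 251 and 400.

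**Figure D1:**
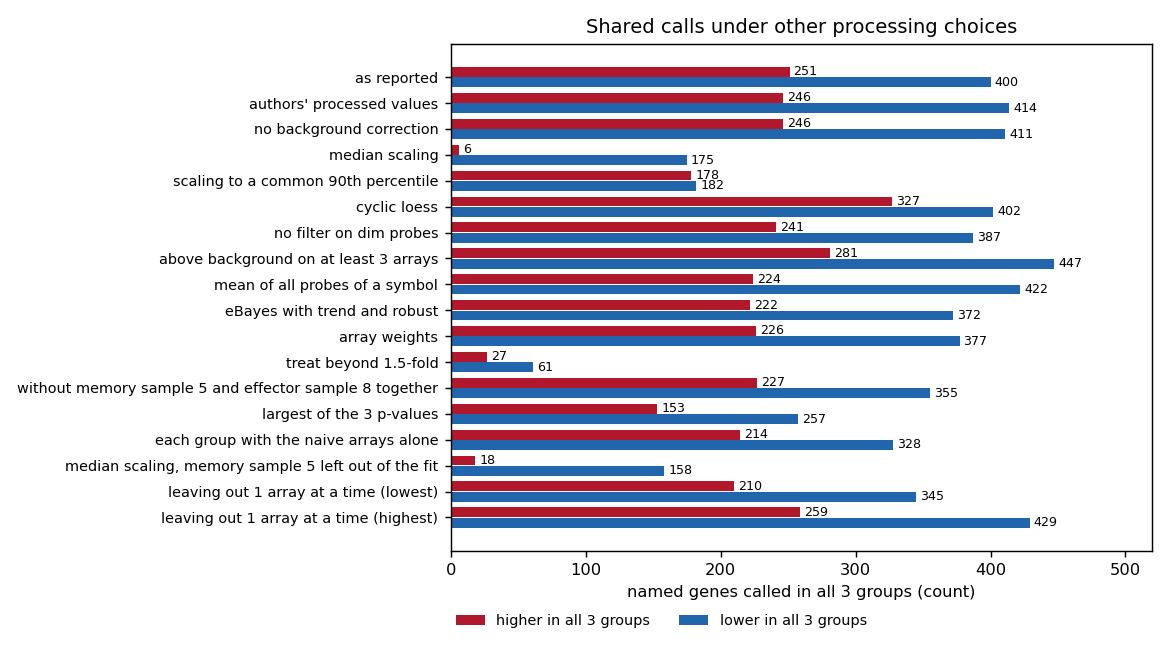
Number of named genes called higher (red) or lower (blue) than naive in all 3 antigen-experienced groups, on the x axis, under each way of processing the arrays, on the y axis. The reported counts are 251 and 400, and median scaling leaves 6 higher and 175 lower genes.

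The 12 genes with the largest smallest gain over naive, among those whose arrays did not overlap, were Mt1, Klrk1, Il10ra, Xcl1, Ier3, Mdfic, Dapk2, Endod1, Inppl1, Pik3ap1, Pcbp4 and Insl6. They encode a metal-binding protein, surface receptors, a chemokine and regulators of signalling and survival. All 12 kept a positive difference in each group under the scaling, filter and test alternatives, and 3 of them, Mt1, Klrk1 and Il10ra, were still called in all 3 groups with median scaling. The smallest of the 3 gains ran from 1.69 to 2.88 over the 12 genes, and from 0.53 to 2.38 with median scaling.

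Klrk1 encodes NKG2D, an activating receptor that recognises stress ligands on target cells. Its normalised log2 intensity was 6.53, 6.31, 6.89, 6.27 and 6.29 on the naive arrays, 9.32, 9.18, 9.32 and 9.81 on the LSEC-primed arrays, 9.18, 9.14, 9.36, 9.35 and 9.11 on the effector arrays and 10.54, 9.84 and 10.81 on the memory arrays. Every antigen-experienced array stood at least 2.22 above the highest naive array, and only 3 of the 5 naive arrays were above background. The gains were 2.95 (SE 0.18, adjusted p = 1.89e-08, limma, n = 4 and 5), 2.77 (SE 0.17, adjusted p = 2.85e-09, n = 5 and 5) and 3.94 (SE 0.19, adjusted p = 7.62e-10, n = 3 and 5) in LSEC-primed, effector and memory cells. Memory cells were higher than effector cells by a difference of 1.17 (SE 0.19, limma adjusted p = 0.000226), while LSEC-primed and effector cells differed by 0.18 (SE 0.18, adjusted p = 0.693). Of 12 measured killer lectin-like receptor genes, Klrk1 was the 1 member higher in all 3 groups, and 3, 3 and 9 members were higher in LSEC-primed, effector and memory cells taken singly, against 10.0%, 14.2% and 6.63% of all genes.

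Mt1 encodes a metallothionein, a small protein that binds zinc and other metals, and its probe may also read the near-identical Mt2 transcript. Its level was 7.60, 7.43, 8.10, 6.72 and 6.93 on naive arrays, 9.31, 10.12, 11.41 and 10.09 on LSEC-primed arrays, 14.58, 14.39, 14.71, 14.58 and 14.75 on effector arrays and 10.62, 12.36 and 8.81 on memory arrays. Effector arrays lay close together and above all other arrays, while the 3 memory arrays ran from 8.81 to 12.36. The gains were 2.88 (SE 0.53) in LSEC-primed, 7.25 (SE 0.50) in effector and 3.24 (SE 0.57) in memory cells, with limma adjusted p = 0.00111, 1.07e-08 and 0.00101. Metallothionein genes are textbook targets of the metal-sensing factor MTF-1, which binds metal response elements. The promoters of Mt1 and Klrk1, from RefSeq on GRCm38.p6 and reaching from 250 bases before to 50 after the gene start, are shown because these 2 genes head the higher set and kept their calls under median scaling. In Mt1 (chr8:94178839-94179138, plus strand) the capitals mark 3 metal response elements (TGCACNC or TGCGCNC), and in Klrk1 (chr6:129623815-129624114, minus strand) they mark 1 RUNX motif (TGTGGT) and 1 AP-1 motif (TGANTCA).
Mt1: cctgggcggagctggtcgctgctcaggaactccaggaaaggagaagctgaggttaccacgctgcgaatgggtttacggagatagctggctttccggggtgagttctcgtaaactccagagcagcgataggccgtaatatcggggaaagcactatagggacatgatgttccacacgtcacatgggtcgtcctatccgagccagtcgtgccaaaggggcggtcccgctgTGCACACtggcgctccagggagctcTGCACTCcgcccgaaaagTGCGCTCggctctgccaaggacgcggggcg
Klrk1: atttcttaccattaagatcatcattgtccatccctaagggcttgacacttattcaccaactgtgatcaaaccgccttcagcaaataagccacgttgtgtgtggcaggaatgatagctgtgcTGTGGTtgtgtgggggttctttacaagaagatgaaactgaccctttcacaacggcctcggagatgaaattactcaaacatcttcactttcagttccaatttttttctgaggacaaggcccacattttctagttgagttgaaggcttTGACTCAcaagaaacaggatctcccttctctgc
Searched on both strands, the metal response element stood in 37.7% of the 204 promoters that could be matched to shared higher genes and in 32.2% of the 13186 promoters of measured genes. For RUNX the shares were 17.6% and 13.8%, for AP-1 7.35% and 6.64%, and for a T-box motif (AGGTGTGA) 2.94% and 1.17%. In all 27025 promoters of the table these 4 motifs stood in 25.6%, 16.9%, 7.93% and 1.27%. A match describes the letters in the window and not a bound site.

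Il10ra, the receptor chain through which interleukin 10 restrains immune cells, was 6.96, 6.97, 6.80, 7.12 and 7.14 on naive, 9.55, 9.01, 9.65 and 9.84 on LSEC-primed, 9.20, 9.23, 9.08, 9.72 and 9.24 on effector and 10.32, 10.11 and 9.79 on memory arrays. No group overlapped the naive arrays, and the gains were 2.51 (SE 0.16), 2.29 (SE 0.15) and 3.07 (SE 0.17), with limma adjusted p at or below 3.54e-08. Xcl1, a chemokine that attracts cross-presenting dendritic cells, was 7.14, 6.49, 7.36, 6.76 and 6.34 on naive arrays and 11.88, 11.66, 11.98 and 11.67 on LSEC-primed arrays. It was 9.95, 10.52, 10.50, 10.33 and 10.66 on effector arrays and 10.22, 9.01 and 8.04 on memory arrays, so the groups ordered LSEC-primed, effector, memory, naive, and 1 memory array overlapped the effector range. The gains of Xcl1 were 4.98 (SE 0.32), 3.57 (SE 0.30) and 2.27 (SE 0.35), with limma adjusted p = 3.45e-08, 1.07e-07 and 0.000264. The call of Xcl1 in all 3 groups ended with median scaling, where the smallest gain was 0.97.

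**Figure D2:**
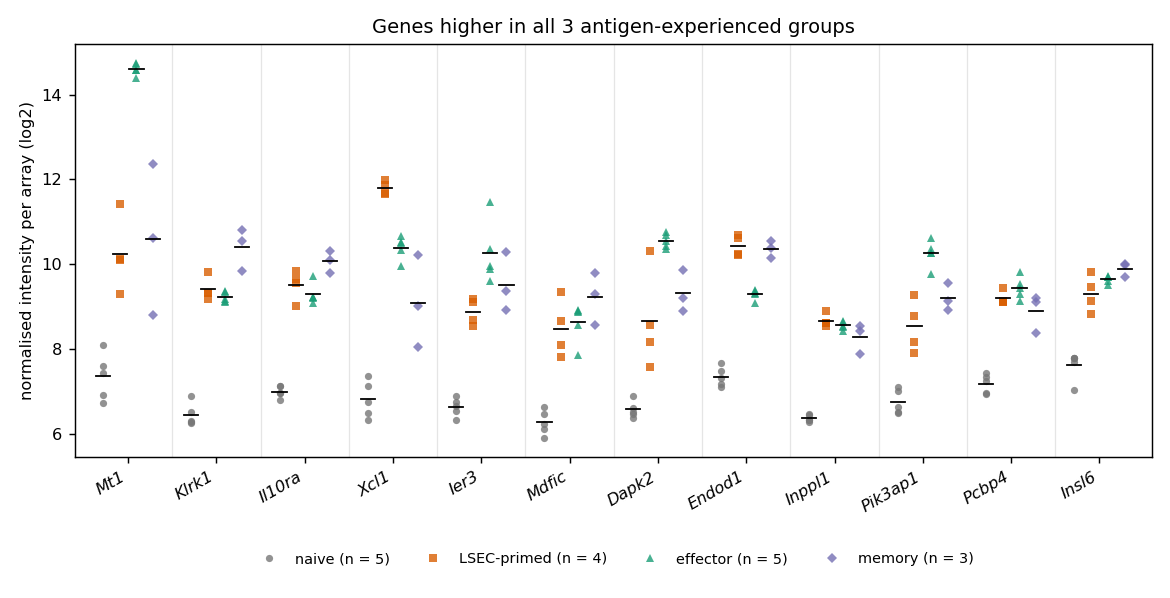
Normalised log2 intensity on each array (y axis) of the 12 genes with the largest smallest gain over naive (x axis). Points are arrays of the naive, LSEC-primed, effector and memory groups and black bars are group means, and for each gene all 12 antigen-experienced arrays lie above the 5 naive arrays.

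Among signalling and survival regulators, Inppl1, encoding the phosphoinositide phosphatase SHIP2, was 6.28 to 6.47 on naive arrays and 7.89 to 8.90 on the antigen-experienced arrays, with gains of 2.30, 2.19 and 1.92 that did not pass the test of a difference among the 3 states (limma adjusted p = 0.1). Pik3ap1, the adaptor BCAP that links receptors to phosphoinositide kinase, gained 1.78 in LSEC-primed, 3.50 in effector and 2.45 in memory cells, and these gains differed (adjusted p = 0.00014). Dapk2, a calmodulin-regulated death-associated kinase, gained 2.09, 3.98 and 2.75, and on the LSEC-primed arrays it ran from 7.59 to 10.32, the widest spread of any group for that gene. Ier3, an early-response gene linked to survival, gained 2.24, 3.62 and 2.89, and its effector arrays ran from 9.61 to 11.47. Mdfic, a transcriptional regulator, was above background on 2 of the 5 naive arrays and on all 12 others, with gains of 2.21, 2.36 and 2.95 that did not pass the test of a difference among states (adjusted p = 0.27). Endod1, a predicted nuclease, Pcbp4, an RNA-binding protein, and Insl6, an insulin-like peptide, gained at least 1.94, 1.71 and 1.69 in each group.

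Of 42 measured landmark genes of antigen experience, 6 were higher and 4 lower in all 3 groups, against 1.52% and 2.43% over all genes. The landmarks and all gene lists were chosen with earlier results of these data known, so such counts are a description. Cd44 was 7.33, 7.54, 7.36, 7.08 and 7.07 on naive, 8.32, 7.98, 8.94 and 8.09 on LSEC-primed, 9.71, 9.54, 8.93, 8.75 and 9.03 on effector and 9.56, 9.84 and 9.02 on memory arrays, with no overlap with naive. Its gains were 1.05 (SE 0.23), 1.92 (SE 0.21) and 2.20 (SE 0.25), with limma adjusted p = 0.00389, 2.72e-06 and 1.2e-05, and its shared call ended with median scaling (smallest gain 0.77). Of 6 other kept Cd44 probes, 4 had the same signs and none was called in the opposite direction. Tbx21 was 6.33, 6.46, 6.41, 6.55 and 6.68 on naive arrays, 7.17, 7.79, 7.64 and 7.50 on LSEC-primed arrays, 7.12, 7.28, 7.50, 7.71 and 6.87 on effector arrays and 10.43, 10.33 and 10.32 on memory arrays. Memory arrays stood apart from all others for Tbx21, with a gain of 3.87 (SE 0.16) against 1.04 (SE 0.15) and 0.81 (SE 0.14), and its shared call also ended with median scaling. The other landmarks higher in all 3 groups were Klrk1, Xcl1, Lgals1 and Anxa2.

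Several landmarks were called in some states only. Ifng, encoding interferon gamma, was higher in effector (1.42, SE 0.20) and memory cells (3.85, SE 0.23), while the LSEC-primed difference of -0.35 (SE 0.21) was not called (limma adjusted p = 0.391). Cxcr3, a receptor for interferon-induced chemokines, was higher in LSEC-primed (2.54, SE 0.21) and memory cells (3.32, SE 0.23) and differed by 0.06 in effector cells (adjusted p = 0.93). Lgals3, encoding galectin 3, was 9.09, 9.17 and 9.19 on 3 LSEC-primed arrays and 13.15 on sample 14, so that its LSEC-primed difference of 1.68 (SE 0.69) was not called (adjusted p = 0.144), while effector cells gained 4.39 and memory cells 3.58. Klf2, a quiescence factor that maintains lymph node recirculation, changed by -2.77 in LSEC-primed and -5.31 in effector cells and differed by -0.56 in memory cells (adjusted p = 0.407). The granzyme B gene Gzmb, S1pr1 and Bach2, each with 1 kept probe, had no array above background in any group. For these genes an absent transcript and a probe that reads poorly cannot be told apart. Tcf7, Gzma and Ly6c2 were not analysed here.

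Among the other lists, S100, annexin and galectin genes had 3 of 19 measured members higher in all 3 groups and 0 lower, against 1.52% and 2.43% over all genes. Lgals1, encoding galectin 1, gained 1.03, 2.76 and 2.67, and Anxa2, a calcium-dependent membrane-binding protein, gained 1.12, 3.70 and 2.68 in LSEC-primed, effector and memory cells. Anxa5 gained 0.91, 1.06 and 0.78, but turned to a smallest difference of -0.68 with median scaling, and its shared call ended without memory sample 3 (0.70) or 5 (0.72). The median difference of the list was 0.40, 0.98 and 1.31. Of 16 glycolysis genes 4 were higher in all 3 groups and 0 lower, against the same 1.52% and 2.43%, with list medians of 0.72, 2.74 and 0.20. The triosephosphate isomerase gene Tpi1 gained 2.38, 4.46 and 1.11, and the glucose transporter gene Slc2a3 gained 0.98, 3.21 and 1.59, yet both turned negative with median scaling (-0.55 and -0.15). The aldolase gene Aldoc gained 1.5, 5.63 and 0.86, and its shared call ended with median scaling and without memory sample 3 (0.67) or 5 (0.60), while without memory sample 9 its memory gain was 1.31. It was above background on 1 of 5 naive arrays. Pfkl, a phosphofructokinase subunit, gained 0.66, 2.29 and 0.75, and turned to -0.73 with median scaling, and without memory sample 5 its memory gain was 0.46 and its shared call ended. The 1 other kept probe of Pfkl did not have the same signs, nor did 1 of the 2 others of Tpi1, while the 1 other probe of Aldoc and of Anxa2 did, and none was called in the opposite direction. With the mean of all probes of a gene 1 glycolysis gene was called higher in all 3 groups, and with array weights or 90th percentile scaling 2. Without memory sample 5 and effector sample 8 together, 1 of the 4 glycolysis calls and 2 of the 3 of the S100, annexin and galectin list were left, and with median scaling 0 in either list.

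Other lists had 1 or 2 members higher in all 3 groups, against 1.52% of all genes. They were 1 of 15 apoptosis regulators (Casp1), 1 of 16 inhibitory receptors and ectoenzymes (Cd160) and 1 of 27 interferon-stimulated genes (Gbp3). Cytotoxic granule genes had 1 of 15 (Rab27a) and oxidative phosphorylation genes 1 of 25 (Ndufb8). Of 28 activation surface molecules 2 were higher (Cd44 and Il2ra), and of 20 secreted cytokines and chemokines 2 (Xcl1 and Tnfsf14). Casp1, the inflammasome caspase, was 6.50 to 7.53 on naive arrays and 8.45 to 12.12 on the others, gained 2.93 (SE 0.21), 1.56 (SE 0.20) and 4.42 (SE 0.23), and kept its call with median scaling. Il2ra, the interleukin 2 receptor alpha chain, was above background on 1 naive array and gained 0.56 in LSEC-primed, 3.50 in effector and 1.71 in memory cells, a difference among states at limma adjusted p = 4.9e-11. Tnfsf14, a cytokine of the tumour necrosis factor family known as LIGHT, gained 0.59, 1.51 and 3.39, and the shared calls of Il2ra and Tnfsf14 ended with median scaling. Cd160, a receptor for the herpesvirus entry mediator, gained 2.15, 1.03 and 1.38, but its smallest difference was -0.18 with median scaling. Gbp3, an interferon-induced GTPase, gained 1.63, 0.49 and 1.74, and its shared call ended without naive sample 1 (0.39), with median scaling (0.21) and with 90th percentile scaling (0.49). Rab27a, which docks cytotoxic granules, gained 0.51, 1.49 and 0.71, and Ndufb8, a subunit of respiratory complex I, gained 0.58, 1.14 and 0.34, but with median scaling both were negative (-0.91 and -1.39), and Ndufb8 was also negative with 90th percentile scaling (-0.34). Without memory sample 5 the memory gain of Ndufb8 was 0.21 and its shared call ended, and its 1 other kept probe did not have the same signs. Of 15 cholesterol biosynthesis genes 0 were called in all 3 groups, and 2, 14 and 1 were higher in LSEC-primed, effector and memory cells, against 10.0%, 14.2% and 6.63% of all genes.

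Igfbp7, a secreted binding protein listed as a marker of sinusoidal endothelium, was also higher in all 3 groups. Above background on 1 of 5 naive arrays, it was 6.13, 6.07, 6.35, 6.15 and 6.15 on naive, 11.48, 12.04, 11.29 and 11.58 on LSEC-primed, 7.84, 8.30, 8.14, 7.87 and 8.20 on effector and 10.16, 7.84 and 6.13 on memory arrays. 1 memory array was as low as the naive arrays. Without memory sample 3 the smallest difference went from 1.87 to 0.82 and was no longer called, while without memory sample 9 the memory difference was 2.83. The call also ended without memory sample 5 (smallest difference 1.90) or without naive sample 1, 2, 12 or 13, where the smallest difference was 1.86, 1.85, 1.87 and 1.87. Of the 21 measured endothelial markers, 13 were higher in LSEC-primed, 4 in effector and 2 in memory cells, against 10.0%, 14.2% and 6.63% of all genes. Their summed linear level was 1543 to 1906 on naive arrays, 6177 to 9675 on LSEC-primed, 2492 to 2977 on effector and 3289 to 4280 on memory arrays. Among defining markers, Cdh5, Lyve1 and Robo4 were above background on all 4 LSEC-primed arrays and on no naive, effector or memory array, and Kdr and Vwf were above background on none of the 17. The part of endothelial RNA in the shared calls was not tested.

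The 12 genes with the largest smallest loss were Dusp10, Ampd1, Fosl2, Pdlim4, Gch1, Ppp1r15a, Igfbp4, Socs3, Plaur, Coq10b, Trib2 and Vps37b. They stayed called in all 3 groups under the scaling, filter and test alternatives, except that Ppp1r15a missed a test beyond 1.5-fold. The smallest of the 3 losses ran from -3.49 to -2.19 over the 12 genes and from -3.43 to -2.05 with median scaling. Dusp10, a phosphatase of the stress kinases p38 and JNK, was 10.39, 9.96, 10.22, 10.62 and 10.23 on naive arrays, 6.47, 6.66, 6.83 and 6.66 on LSEC-primed arrays, 6.76, 6.89, 6.92, 6.78 and 6.61 on effector arrays and 6.07, 6.07 and 6.30 on memory arrays. The lowest naive array stood 3.04 above the highest antigen-experienced array. Dusp10 changed by -3.63 (SE 0.12), -3.49 (SE 0.11) and -4.14 (SE 0.13) in LSEC-primed, effector and memory cells, with limma adjusted p at or below 1.86e-11, and 1 of the 3 memory arrays was above background.

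Fosl2, an AP-1 subunit, was 10.77, 11.04, 11.09, 11.23 and 11.05 on naive, 7.08, 7.50, 7.16 and 7.40 on LSEC-primed, 7.82, 7.60, 7.87, 7.89 and 8.27 on effector and 7.31, 7.99 and 8.24 on memory arrays, and changed by -3.75 (SE 0.17), -3.14 (SE 0.16) and -3.19 (SE 0.18). Ppp1r15a, a stress-induced phosphatase subunit that restores translation, was 11.88, 11.04, 11.26, 11.35 and 10.29 on naive arrays, 7.12, 6.77, 7.55 and 7.56 on LSEC-primed arrays, 8.22, 8.03, 7.46, 8.18 and 8.05 on effector arrays and 10.02, 9.50 and 6.88 on memory arrays. The memory arrays of Ppp1r15a were far apart, and its differences from naive were -3.91 (SE 0.47), -3.17 (SE 0.44) and -2.36 (SE 0.51), the last of which was -1.40 without memory sample 9. Both belong to a list of 26 immediate-early and heat shock genes, of which 7 were lower and 1, Ier3, higher in all 3 groups, against 2.43% and 1.52% over all genes. The other lower members were Dusp10, Dusp1, Jun, Nr4a3 and Rgs2, the last 4 named after their values were seen. With 90th percentile scaling the smallest difference turned to 0.14 for Jun, 0.12 for Nr4a3 and 0.39 for Rgs2. The count of lower members was 8 with median scaling, 7 with 90th percentile scaling and 7 without memory sample 5 and effector sample 8, and 2 in the test beyond 1.5-fold. With 90th percentile scaling the 7 were not the same genes, since Jun, Nr4a3 and Rgs2 were no longer among them. Not every member moved so: Junb changed by -3.37 in LSEC-primed and -1.48 in effector cells, while its memory difference of -1.39 (SE 0.51) was not called (limma adjusted p = 0.0961).

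Dusp1, the first-described MAP kinase phosphatase, was 12.67, 12.92, 12.73, 12.30 and 11.99 on naive, 10.18, 10.48, 8.86 and 10.20 on LSEC-primed, 9.33, 9.35, 9.37, 9.24 and 8.60 on effector and 10.94, 11.86 and 8.91 on memory arrays and changed by -2.59, -3.35 and -1.95. Without memory sample 9 the memory difference of Dusp1 was -1.12 and its shared call ended. Zfand2a, a stress-induced zinc finger protein of the proteasome pathway, was 11.10, 11.43, 11.25, 11.48 and 11.31 on naive arrays and 8.08 to 9.72 on the others and changed by -2.37, -3.09 and -2.02. With Ppp1r15a, these are the shared lower genes with the largest smallest loss among those whose RefSeq promoter holds the full cyclic AMP response element (CRE, TGACGTCA), and they were chosen for display after the values were seen. The CRE was found in 6.19% of the 323 matched promoters of shared lower genes, 1.47% of the 204 of shared higher genes, 2.65% of the 13186 of measured genes and 1.88% of all 27025. The windows are chr7:45526219-45526518 for Ppp1r15a, chr5:139484442-139484741 for Zfand2a and chr17:26508423-26508722 for Dusp1, all on the minus strand of GRCm38.p6, with the CRE in capitals.
Ppp1r15a: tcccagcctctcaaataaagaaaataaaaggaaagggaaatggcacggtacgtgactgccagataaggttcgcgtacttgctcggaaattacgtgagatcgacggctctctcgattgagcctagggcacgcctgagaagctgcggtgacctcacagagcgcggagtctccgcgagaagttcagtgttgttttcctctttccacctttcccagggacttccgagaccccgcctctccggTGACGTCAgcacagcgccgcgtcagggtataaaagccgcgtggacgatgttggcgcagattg
Zfand2a: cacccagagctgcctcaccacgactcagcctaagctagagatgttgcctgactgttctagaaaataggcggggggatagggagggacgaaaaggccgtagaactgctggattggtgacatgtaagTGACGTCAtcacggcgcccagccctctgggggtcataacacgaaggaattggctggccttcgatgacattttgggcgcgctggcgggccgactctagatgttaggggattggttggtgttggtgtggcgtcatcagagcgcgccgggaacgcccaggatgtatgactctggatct
Dusp1: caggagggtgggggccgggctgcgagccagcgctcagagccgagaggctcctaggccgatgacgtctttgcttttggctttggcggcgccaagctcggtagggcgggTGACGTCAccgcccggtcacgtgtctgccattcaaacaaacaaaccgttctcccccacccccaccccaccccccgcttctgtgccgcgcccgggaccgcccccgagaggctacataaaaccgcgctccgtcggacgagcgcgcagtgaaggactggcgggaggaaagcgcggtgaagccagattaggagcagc
The other motifs stood in 4.02% (AP-1), 8.36% (RUNX), 1.55% (T-box) and 35.6% (metal response element) of the promoters of shared lower genes. These shares are descriptions of sequence, with no test.

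**Figure D3:**
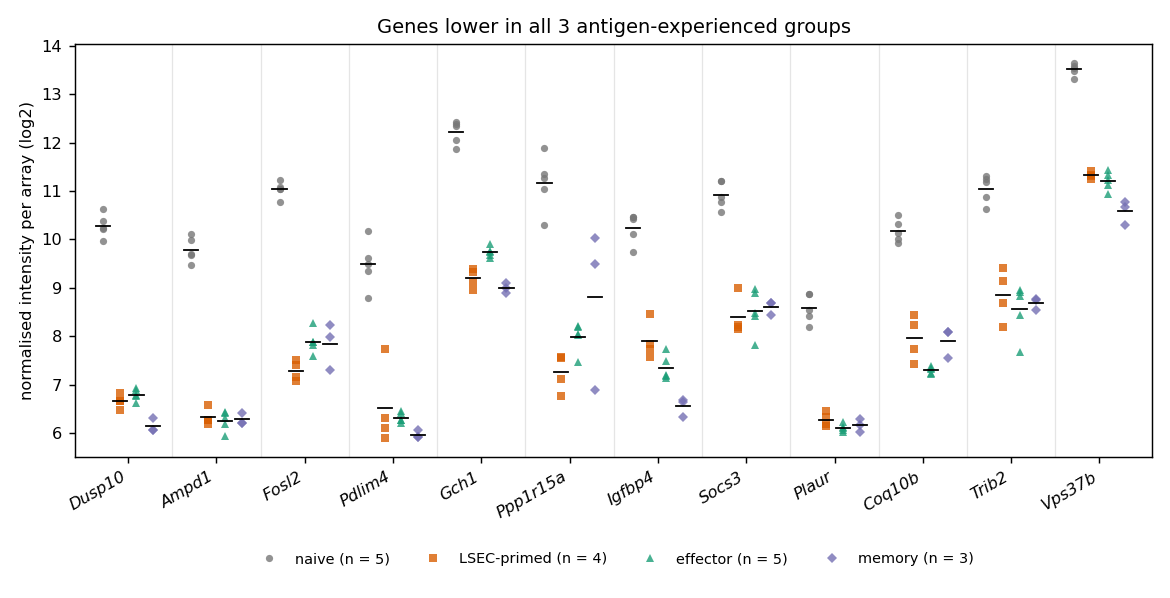
Normalised log2 intensity on each array (y axis) of the 12 genes with the largest smallest loss against naive (x axis), with black bars at group means. For each gene all 12 antigen-experienced arrays lie below the 5 naive arrays, and the memory arrays of Ppp1r15a run from 6.88 to 10.02.

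Feedback and receptor genes of cytokine signalling came next. Socs3, a feedback inhibitor of cytokine receptors, was 11.20, 10.88, 11.21, 10.77 and 10.56 on naive, 8.15, 9.00, 8.24 and 8.20 on LSEC-primed, 8.98, 8.47, 8.90, 8.42 and 7.81 on effector and 8.68, 8.69 and 8.43 on memory arrays. It changed by -2.52 (SE 0.22), -2.41 (SE 0.21) and -2.32 (SE 0.24), losses that did not pass the test of a difference among the 3 states (limma adjusted p = 0.85). Of 18 cytokine receptor and SOCS genes, 3 were lower in all groups (Socs3, Ifngr1 and Il4ra) and 1, Il10ra, higher, against 2.43% and 1.52% over all genes. Ifngr1, the ligand-binding chain of the interferon gamma receptor, changed by -1.45, -1.59 and -1.35. Il4ra, the interleukin 4 receptor alpha chain, changed by -1.23, -1.38 and -1.19 and was above background on 6 of the 12 antigen-experienced arrays. The shared call of Ifngr1 ended with median scaling and that of Il4ra with 90th percentile scaling.

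Of 25 measured genes of naive T cell identity and lymph node homing, 10 were lower and 0 higher in all 3 groups, against 2.43% and 1.52% over all genes. This list too was chosen with earlier results of these data known, so its counts are a description. Taken singly, 16, 18 and 14 members were lower in LSEC-primed, effector and memory cells, against 5.75%, 12.3% and 6.93% of all genes, and 2, 0 and 0 were higher, with list medians of -0.76, -1.51 and -0.92. The count of 10 was 8 with median scaling, 9 with 90th percentile scaling, 10 without memory sample 5 and effector sample 8, and 3 in the test beyond 1.5-fold. With median and with 90th percentile scaling the members counted were not all among these 10. Lef1 was 9.77, 8.64, 9.38, 9.23 and 9.48 on naive, 7.88, 7.40, 8.25 and 8.22 on LSEC-primed, 8.09, 7.63, 7.41, 7.45 and 7.22 on effector and 7.98, 7.46 and 7.14 on memory arrays, and changed by -1.36 (SE 0.24), -1.74 (SE 0.23) and -1.78 (SE 0.26), with limma adjusted p = 0.000768, 1.47e-05 and 0.000192. Igfbp4, an insulin-like growth factor binding protein expressed by naive T cells, was 9.73 to 10.47 on naive arrays and changed by -2.34, -2.90 and -3.68. Il6ra, the interleukin 6 receptor, was 8.62, 8.27, 7.82, 8.60 and 8.79 on naive arrays, changed by -2.15 (SE 0.18) in LSEC-primed and -1.94 (SE 0.19) in memory cells, each with 2 arrays above background, and was at least 4.44-fold lower in effector cells, where no array was above background (limma adjusted p = 1.47e-08). A fold written as "at least" sets the bright group against the lowest level measured above background. Ramp1, a subunit of the receptor for calcitonin gene-related peptide, changed by -2.25 and -1.85 in LSEC-primed and effector cells and was at least 4.25-fold lower in memory cells, with no memory array above background. Its 1 other kept probe did not have the same signs and was not called in the opposite direction.

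The other 6 members of that list lower in all 3 groups were the landmarks Ccr7 and Satb1 and, named after their values were seen, Il6st, Nsg2, Tgfbr2 and Cd55. Ccr7, which guides T cells into lymph nodes, was 9.98 to 11.29 on naive, 8.62 to 9.54 on LSEC-primed, 8.82 to 9.79 on effector and 6.22 to 7.74 on memory arrays, with differences of -1.59, -1.21 and -3.67. Satb1, a chromatin organiser of T cell development, was 13.62 to 14.05 on naive and 12.71 to 13.48 on the other arrays, and changed by -0.59, -0.89 and -0.92. Tgfbr2, a receptor chain for transforming growth factor beta, changed by -0.73, -1.42 and -0.96, and Il6st, the signalling partner of the interleukin 6 receptor, changed by -1.0, -2.32 and -2.43. The shared calls of Satb1, Tgfbr2 and Il6st ended with median scaling, and those of Satb1 and Tgfbr2 also with 90th percentile scaling. Of the landmarks in the same biology, Actn1 was lower in effector (-2.05) and memory cells (-3.85) and differed by -0.24 in LSEC-primed cells (limma adjusted p = 0.89), and Il7r, the interleukin 7 receptor, changed by -1.65 and -0.93 in LSEC-primed and effector cells and differed by 0.09 in memory cells (adjusted p = 0.887).

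The remaining leading losses were in metabolism, signalling and trafficking. Ampd1, an AMP deaminase, was 9.67, 10.11, 9.48, 9.99 and 9.69 on naive arrays and 5.94 to 6.57 on the others, with 1 LSEC-primed and 3 effector arrays above background, and was at least 8.30-fold lower in memory cells, which had none (limma adjusted p = 8.23e-11). Gch1, the first enzyme of tetrahydrobiopterin synthesis, was 11.87 to 12.43 on naive and 8.89 to 9.90 on the other arrays and changed by -3.02, -2.48 and -3.22. Plaur, the urokinase receptor, changed by -2.31 in LSEC-primed cells, with 2 of 4 arrays above background, and by -2.47 in effector cells, with 1 of 5, and was at least 3.60-fold lower in memory cells. Vps37b, a subunit of an endosomal sorting complex, was 13.32 to 13.65 on naive and 10.29 to 11.44 on the others, and changed by -2.19, -2.31 and -2.94. Trib2, a pseudokinase, changed by -2.20, -2.49 and -2.37, and Coq10b, which binds coenzyme Q, by -2.22, -2.88 and -2.27. Pdlim4, a cytoskeletal LIM protein, changed by -2.97 in LSEC-primed cells, with 2 of 4 arrays above background, and by -3.17 in effector cells, with 3 of 5, and was at least 6.72-fold lower in memory cells.

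Of 13 DNA methylation and Polycomb genes, 3 were lower in all 3 groups and 0 higher, against 2.43% and 1.52% over all genes, with list medians of -0.03, 0.02 and -0.25. With the mean of all probes of a gene 2 were lower and 1 higher, and with median scaling 2 were lower. Only 1 was lower with 90th percentile scaling, in the test beyond 1.5-fold, and with median scaling without memory sample 5. Kdm6b, a histone demethylase of the repressive H3K27 mark, was 8.59 to 9.23 on naive and 6.85 to 7.82 on the other arrays and changed by -1.58, -1.83 and -1.72. Tet1, a 5-methylcytosine dioxygenase, changed by -1.13 and -0.56 in LSEC-primed and effector cells and was at least 1.68-fold lower in memory cells, but its shared call ended with median scaling and with 90th percentile scaling. Tet3, of the same family, was above background on 1 of the 12 antigen-experienced arrays, and its smallest difference turned to 0.45 with 90th percentile scaling. Of 2 other kept probes of each gene, 1 had the same signs for Kdm6b and 0 for Tet3, and none was called in the opposite direction. Of 16 cell cycle inhibitors and quiescence brakes 2 were lower in all groups, against the same 2.43%. Tsc22d3, the glucocorticoid-induced leucine zipper, changed by -3.03, -1.95 and -1.56, and Tob1, an antiproliferative protein of resting T cells, by -1.86, -1.91 and -1.47.

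**Figure D4:**
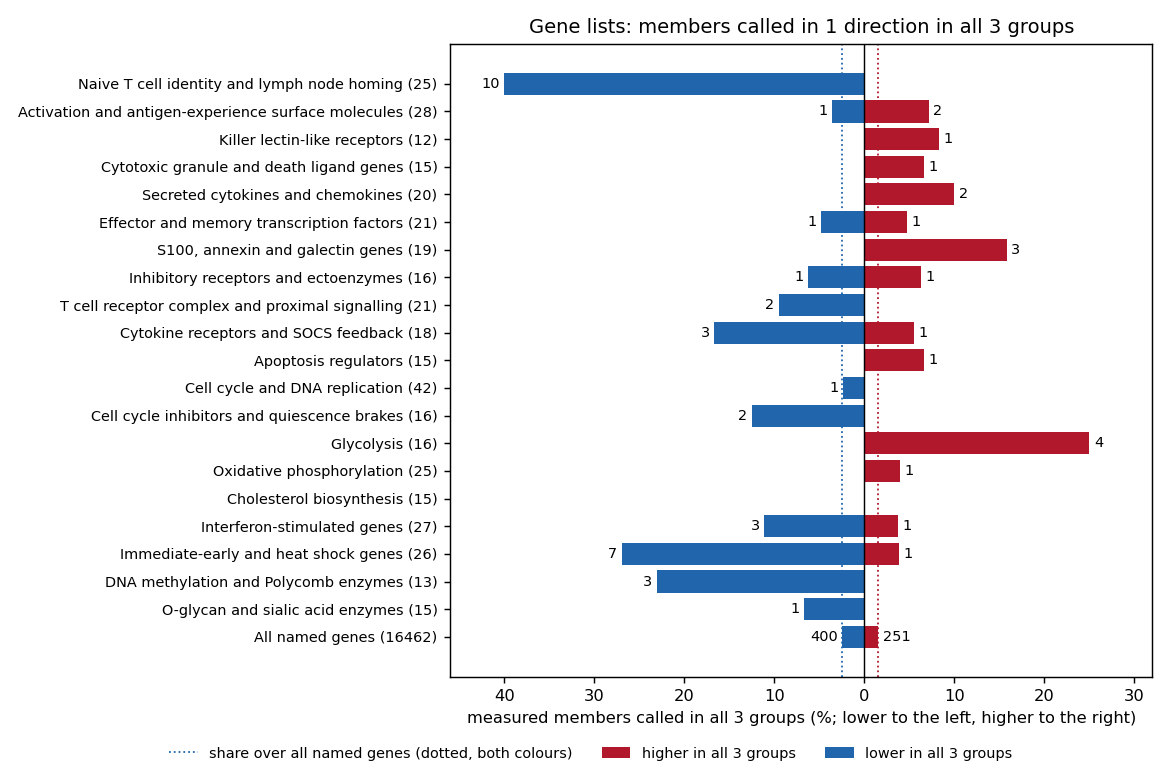
Share of the measured members of each gene list (x axis, percent, with the number of members beside each bar) called lower (blue, left) or higher (red, right) than naive in all 3 groups, by list (y axis, measured members in parentheses). Dotted lines mark the shares over all 16462 named genes, 2.43% and 1.52%.

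Cd69, an early activation receptor that also retains cells in tissue, was lower in all 3 groups, with differences of -1.24, -1.36 and -1.88 from 11.75 to 12.96 on the naive arrays, a shared call that ended with median scaling. Of 27 interferon-stimulated genes 3 were lower (Oas2, Rsad2 and Mx2) and 1 higher in all 3 groups, against 2.43% and 1.52% over all genes. With 90th percentile scaling 0 were lower and 0 higher, and with median scaling 2 and 0. Oas2, an antiviral nucleotide polymerase, was 7.64, 8.55, 7.39, 8.25 and 6.65 on naive arrays, at least 2.64-fold lower in LSEC-primed and 2.69-fold lower in effector cells, where no array was above background (limma adjusted p = 0.000285 and 5.84e-05), and its memory difference was -1.47. Mx2 changed by -0.95 in LSEC-primed cells, with 2 arrays above background, and by -0.79 in memory cells, with 1, and was at least 2.02-fold lower in effector cells, yet its smallest difference was 0.10 with 90th percentile scaling. The inhibitory receptor gene Btla changed by -0.50, -1.13 and -1.82, and the receptor complex genes Trat1 and Sh2d2a had smallest differences of -0.59 and -0.37. The calls of all 3 genes ended with median scaling and with 90th percentile scaling, and that of Btla also with the trend and robust fit. Of 42 cell cycle genes 1, the replication licensing factor gene Cdt1, was lower in all groups, with differences of -1.48, -0.53 and -0.70. That call ended with median or 90th percentile scaling, with array weights, and without memory sample 5 and effector sample 8. Taken singly, 34 of the 42 were higher in effector, 19 in LSEC-primed and 3 in memory cells, against 14.2%, 10.0% and 6.63% of all genes.

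Shared direction did not mean equal size. The F-test among the 3 antigen-experienced groups, which leaves the naive arrays out of the contrast, called 4952 genes (30.1%), and among the shared genes it called 139 of 251 higher and 160 of 400 lower. The gain was largest in effector cells for 105 of the 251, in memory cells for 81 and in LSEC-primed cells for 65. The loss was largest in memory cells for 166 of the 400, in effector cells for 162 and in LSEC-primed cells for 72. Among the named losses, Socs3, Trib2 (limma adjusted p = 0.73) and Ifngr1 (0.74) did not pass this test, while Tsc22d3 (1.9e-05), Gch1 (0.00049) and Vps37b (0.0005) did.

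Genes that set a single state apart were counted only where that state differed, with one sign, from naive and from both other states. Memory cells alone were higher for 453 (2.75%) and lower for 326 genes (1.98%), effector cells for 1010 (6.14%) and 668 (4.06%), and LSEC-primed cells for 311 (1.89%) and 43 (0.261%). The share that was higher was 58.2% in memory, 60.2% in effector and 87.9% in LSEC-primed cells. With median scaling it was 2.39% of 1297, 98.6% of 797 and 100% of 201 genes, and for memory cells it was 80.6% of 237 with cyclic loess and 95.6% of 9744 with 90th percentile scaling. The memory total of 779 was 533 without memory sample 5 and 1176 without memory sample 9. Cx3cr1, the fractalkine receptor, was 10.55, 11.05 and 10.46 on memory arrays and at background on the other 14, at least 20.9-fold higher than naive (limma adjusted p = 7.84e-13). Klrg1, an inhibitory lectin-like receptor of terminally differentiated cells, was at background on the same 14 arrays and at least 23.6-fold higher in memory cells. S1pr5, a receptor for tissue exit, was above background on 1 of 5 naive arrays and gained 5.11 in memory cells. Zeb2, a repressor that acts with T-bet, was above background on 2 of 5 and gained 4.96. St6gal1, a sialyltransferase, changed by -4.20, Ccr7 by -3.67, the centromere histone gene Cenpa by -2.25 and the MAP kinase phosphatase gene Dusp4 by -2.08 in memory cells. The same signs in all 3 comparisons with naive were seen for 0 of 1 other kept probe of S1pr5, St6gal1 and Cenpa. For Zeb2 it was 0 of 2 and for Dusp4 2 of 3, and none was called in the opposite direction.

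In effector cells alone, the mitochondrial gene Mgarp was 11.60 to 11.97 and at least 43.5-fold higher than naive, where no array was above background. Aldoc gained 5.63, Mt1 7.25, and Tg, encoding thyroglobulin, was at least 23.2-fold higher. Ifi213, an interferon-inducible gene with near-identical family members that its probe may also read, fell by 5.32 in effector cells, from 11.37 to 12.27 to 6.35 to 6.61, and differed by 0.08 in memory cells (limma adjusted p = 0.828). Slfn1, a schlafen gene of T cell growth control, changed by -2.78, the sensor gene Nod1 by -2.75 and Btbd11 by -2.98. In LSEC-primed cells alone, Angpt2, a vascular growth factor, was 10.36, 10.65, 9.16 and 10.46 and at least 14.5-fold higher than naive, and Ubd, a ubiquitin-like gene, was at least 11.3-fold higher. The chemokine Cxcl9 gained 3.95 and Igfbp7 5.43, each above background on 1 of 5 naive arrays, and the endothelial marker levels given above were present on the same arrays. Junb changed by -3.37, the chemokine receptor Cxcr4 by -2.46, the interleukin 18 receptor Il18r1 by -1.74 and the granule-docking gene Sytl2 by -1.48 in LSEC-primed cells, and the LSEC-primed calls of Junb, Cxcr4, Il18r1, Sytl2 and Igfbp7 ended with median scaling. The same signs in all 3 comparisons with naive were seen for 0 of 1 other kept probe of Ifi213, Angpt2 and Junb. For Btbd11 and Il18r1 it was 0 of 2, for Sytl2 2 of 3 and for Aldoc 1 of 1, and none was called in the opposite direction.

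**Figure D5:**
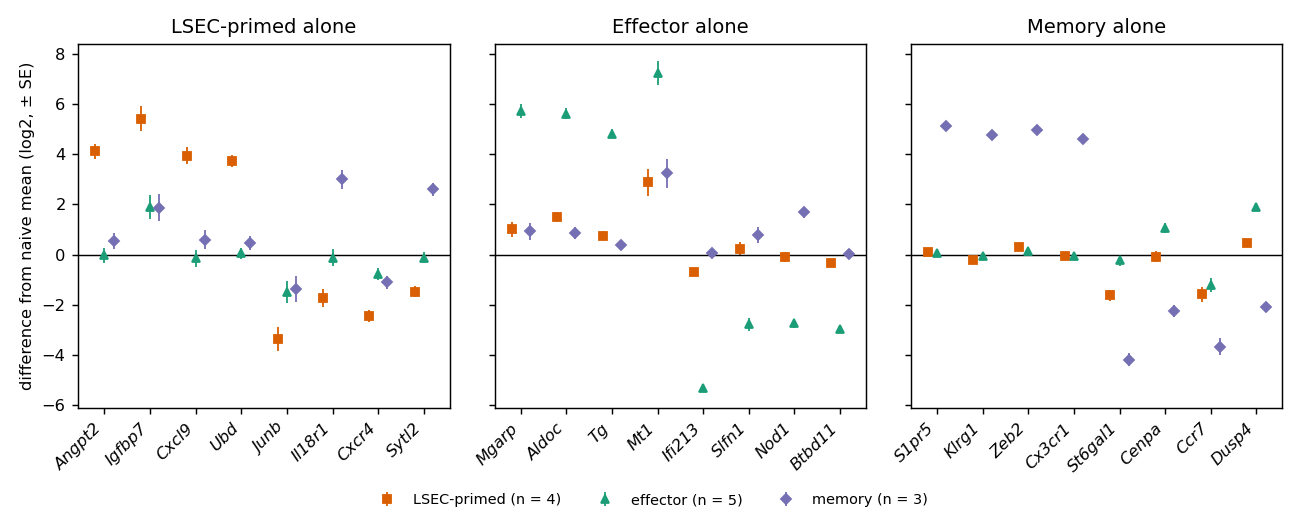
Difference from the naive mean (y axis, log2, with SE bars) in LSEC-primed, effector and memory cells for the genes (x axis) that set each state apart, 8 per state. Cx3cr1, Klrg1, S1pr5 and Zeb2 stand more than 4 above naive in memory cells and near 0 in the other states.

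A further 371 genes (2.25%) had no common direction: they were higher than naive in one state and lower in another, with the difference between those states called as well. Ccl5, a chemokine of memory T cells, was 11.11, 10.89, 10.78, 11.02 and 11.02 on naive, 8.24, 9.05, 9.81 and 8.86 on LSEC-primed, 7.55, 7.85, 7.47, 7.84 and 7.11 on effector and 14.37, 14.71 and 14.45 on memory arrays. It changed by -1.97 (SE 0.23) in LSEC-primed and -3.40 (SE 0.21) in effector cells and gained 3.54 (SE 0.25) in memory cells, so that the 4 groups did not overlap. Ly6c1, a surface antigen with a near-identical neighbour that its probe may also read, fell by 2.34 in effector cells and gained 3.13 in memory cells. Il18r1 fell by 1.74 in LSEC-primed cells and gained 3.00 in memory cells. The ribosome maturation gene Tsr3 changed by -1.85, Nod1 by -2.75 and Samd3 by -1.06 in effector cells, while in memory cells they gained 2.68, 1.68 and 3.27. Of 2 other kept probes of each gene, 0 had the same signs for Il18r1, 1 for Tsr3 and 2 for Samd3. None of these probes was called in the opposite direction. With median scaling 218 genes had opposite directions.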

How the data were processed

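Total RNA of 17 samples in 4 groups was measured as biotin-labelled cRNA on Illumina mouse bead arrays, 1 array per sample. The deposited table holds non-normalized probe intensity per the file headers, no label or header says how it was made, and the number of arrays limits the precision. In the authors' deposited series table the intensity values share the same quantiles on every array, and they served as an alternative. A further 3 columns with no sample label were not analysed.

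With R 4.3.3 and limma 3.58.1, intensities were background-corrected (normexp, offset 50), quantile-normalised and put on the log2 scale, starting from the deposited values. The files used here gave no detection p, so probes above the array median on at least 3 arrays were kept, which left 35237 of 45281 probes. Where a gene had several probes the one of highest mean was used, with genes named from a 2016 platform annotation in which 34885 probes had 1 symbol, 18 several and 10378 none, giving 16462 named genes and 7237 unnamed features. One limma model over all 17 arrays gave each comparison, with Benjamini-Hochberg adjustment over all features. A gene was called shared at an adjusted p under 0.05 with one sign in all 3 comparisons with naive, and called in 1 state alone when that state differed from naive and from both other states. The labels and files used here name no batch. Background on an array was its mode plus 3 SD of the lower side. A fold written "at least" sets the bright group's mean against the higher of the dim probe's own level and the lowest level measured above background. The code was tested on simulated data.

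The members and gene lists were chosen with earlier results of these data known. The text names the 12 highest and 12 lowest shared genes whose arrays do not overlap naive, the 4 highest and 4 lowest of each state alone, the 6 largest opposite changes, up to 4 shared members per list, landmark genes, and marker genes of CD8 T cells and endothelium. Genes outside this rule are said to be named after their values were seen. The alternatives were the authors' values, no background correction, other scalings, filters on dim probes, the mean of all probes, robust or weighted fits, a test beyond 1.5-fold and leaving out arrays.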

Additional observations from a re-analysis of the deposited data

Results flagged for a closer look

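Within groups of 4 or 5 arrays, 20 of 483 gene and group pairs over 161 genes had 1 array far from the others, judged by its gap to the nearest array as a share of the group's range. Chance gives such a gap in about 1 in 20 groups. Effector sample 17 held 6 of them: it was lowest for Ramp1 (0.891), Dusp1 (0.832), Id3 (0.833), Tsr3 (0.762) and Klf2 (0.731) and highest for Clk1 (0.763). LSEC-primed sample 7 was highest for Cd8a (0.936), Socs3 (0.889) and Rsad2 (0.834). LSEC-primed sample 14 was highest for Lgals3 (0.975) and Pcbp4 (0.881), and LSEC-primed sample 15 was lowest for S100a4 (0.884). Among the other effector arrays, sample 16 was highest for Il10ra (0.756), sample 6 highest for Klrg1 (0.725), sample 10 lowest for Ppp1r15a (0.760), and sample 8 lowest for Cenpa (0.715) and highest for Nr4a2 (0.742). Naive sample 13 was lowest for Insl6 (0.854) and Trat1 (0.723), and naive sample 1 was lowest for Cenpa (0.800).

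Some genes differed between the antigen-experienced states by limma's test of the difference itself. Effector cells were below memory cells for Ccl5, with a log2 difference of -6.95, for Ly6c1 (-5.46), Tsr3 (-4.53), Nod1 (-4.44) and Samd3 (-4.33). LSEC-primed cells were below memory cells for Il18r1, with a difference of -4.74. Of the genes with a shared direction, 139 higher and 160 lower genes differed in size among the 3 states by the F-test.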

How the results depend on the processing

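No paired analysis was possible because the labels do not say which mice or cultures each sample came from. The authors' values, no background correction, the 2 filters on dim probes, the mean of all probes and the trend and robust fit left each of the 8 counts within 1.5 times its reported value. Median scaling gave 6 shared higher and 175 shared lower genes, 1357 genes for the average (50.6% higher, against 56.4%), 201 for LSEC-primed, 797 for effector and 1297 for memory cells alone, and 218 in opposite directions. With memory sample 5 also left out of the fit, chosen after seeing the data, these were 18, 158, 1436, 153, 890, 225 and 67, and 3072 genes differed among states. The 90th percentile, also chosen after seeing the data, gave 182 shared lower genes, 1845 for the average, 13528 that differed among states, 91, 785 and 9744 for LSEC-primed, effector and memory cells alone, and 224 in opposite directions. Cyclic loess gave 237 genes of memory cells alone and 192 in opposite directions, and array weights gave 464 of memory cells alone. The test beyond 1.5-fold gave 27 shared higher and 61 shared lower genes, 536 for the average, 47, 410 and 108 for the states alone and 21 in opposite directions, fewer by construction. Taking the largest of the 3 p-values gave 153 and 257 shared genes, pooling the 12 arrays gave 1616 for the average, and leaving out memory sample 5 and effector sample 8 gave 493 of memory cells alone. Leaving out 1 array gave 210 to 259 shared higher, 345 to 429 shared lower, 2916 to 3589 for the average, 4487 to 5435 that differed among states, 288 to 395, 1486 to 1772 and 533 to 1176 for LSEC-primed, effector and memory cells alone, and 294 to 460 in opposite directions. The smallest difference turned negative with median scaling for Anxa5 (-0.68), Cd160 (-0.18), Ndufb8 (-1.39), Pfkl (-0.73), Rab27a (-0.91), Slc2a3 (-0.15), Tpi1 (-0.55), Bcl2a1b (-0.13), Bcl2a1d (-0.27), Psmb9 (-0.50), Cst7 (-0.017), Gimap7 (-0.022) and Mrpl14 (-0.37). With median scaling and memory sample 5 left out of the fit, the smallest difference was -0.061 for Anxa5, -0.72 for Ndufb8, -0.28 for Pfkl, -0.22 for Rab27a and -0.091 for Tpi1. With the 90th percentile it turned for Mx2 (0.096), Ndufb8 (-0.34), St8sia1 (0.18), Tet3 (0.45), Nr4a3 (0.12), Dusp8 (0.50), Jun (0.14) and Rgs2 (0.39). The cause of these changes was not tested. Probes near background limit what can be measured, most on memory sample 5.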

Other observations

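The genes and families here were chosen after their values were seen. Over all genes 2.43% were lower and 1.52% higher in all 3 groups. Of 21 dual-specificity phosphatase genes 5 were lower in all 3 groups, among them Dusp5, a nuclear phosphatase of ERK, which was 10.20 to 10.65 on naive and 7.49 to 9.08 on the other arrays. Of 3 type 4 phosphodiesterase genes, which degrade cyclic AMP, 2 were lower, and Pde4b, which kept its shared call in each setting but the test beyond 1.5-fold, changed by -2.23 in LSEC-primed, -3.01 in effector and -1.85 in memory cells. Crem, a cyclic AMP-responsive regulator of transcription, changed by -3.33, -1.75 and -4.09. Per1, a circadian clock gene, changed by -2.49, -1.82 and -3.13, and Csrnp1, a nuclear protein induced by AXIN1, changed by -2.49, -2.09 and -2.68. Tnfaip3, encoding the NF-kappaB inhibitor A20, changed by -2.68, -2.01 and -1.61, but without memory sample 9 its memory difference was -0.88, and its shared call ended without that array and also without memory sample 3 or naive sample 11. Of 3 Nr4a nuclear receptor genes 2 were lower, and Nr4a2 changed by -1.87, -1.56 and -2.14. Of 4 CDC-like kinase genes, which phosphorylate splicing factors, 2 were lower, and Clk1 changed by -3.19, -2.05 and -1.64. With 90th percentile scaling the shared calls of Dusp8, Dusp16, Pde4a, Nr4a3 and Clk4 in these families ended. Ramp3, a receptor activity-modifying protein, had no LSEC-primed or memory array above background and was lower by at least 4.24-fold in LSEC-primed and at least 3.12-fold in memory cells, and fell by 2.12 in effector cells (limma adjusted p = 0.000209, 0.000248 and 6.75e-05).

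Among genes higher in all 3 states, S1pr2, a receptor for sphingosine 1-phosphate that confines cells, was 6.65 to 6.98 on naive and 8.28 to 9.23 on the other arrays. Its gains of 1.64, 1.68 and 2.04 did not pass the test of a difference among states (limma adjusted p = 0.105). Stx11, a syntaxin needed for release of cytotoxic granules, gained 1.62, 4.38 and 2.56 in LSEC-primed, effector and memory cells. The shared calls of S1pr2, Stx11 and Casp4 ended with median scaling. Casp4, a caspase that senses cytosolic lipopolysaccharide, gained 1.86, 1.23 and 1.66, and 2 of 7 caspase genes were higher. Of 3 genes of the antiapoptotic Bcl2a1 family 2 were higher, but their near-identical sequences may be read by each other's probes, and both calls ended with median scaling. Psmb9, an immunoproteasome subunit, gained 1.41, 1.42 and 1.23, and its shared call ended with median and with 90th percentile scaling. Of 7 Gimap GTPase genes, which affect lymphocyte survival, Gimap7 gained 2.11, 1.5 and 1.62 while Gimap6 changed by -0.56, -2.23 and -0.72, and the shared calls of both ended with median scaling. Of 76 mitochondrial ribosomal protein genes 5 were higher and 0 lower in all 3 groups. The smallest difference of Mrpl14 turned negative with median scaling, under which only 6 of all named genes were higher in all 3 groups.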
